A study of Mus musculus with 2 samples.

Results

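Cycling alveolar macrophages were immune cells that carried transcripts of the phagocyte of the airspace together with transcripts of dividing cells. They were picked by UMI (unique molecular identifiers, each 1 counted transcript) within the class that the depositors named Immune. A cell counted as an alveolar macrophage with at least 6 UMI of Ear2, Plet1, Atp6v0d2, Ctsk and Mrc1 in sum and at most 2 UMI of Cd3d, Cd3e, Cd3g, Cd79a and Cd79b. It counted as cycling with at least 3 UMI of Mki67, Top2a, Cdk1 and Cenpf in sum. The cycling cells numbered 93 of 986 alveolar macrophages, of 7546 immune cells and of 15389 cells in all. They were set against the 797 alveolar macrophages with 0 UMI of these division genes, called non-cycling here, and 96 cells with 1 or 2 such UMI lay in between.

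The cells came from lung adenocarcinomas of C57BL/6 mice, parted with magnetic beads into CD45-positive and CD45-negative fractions, CD45 being the surface phosphatase of leukocytes. Each fraction was 1 droplet library, counted at the 3' ends of transcripts. Names of the cells carry the word LucOS, which the sources used here do not explain. The tumour model, any treatment, the age and number of the mice and whether they were pooled are not given in the labels used here. All groups thus share tissue, strain and tumour, and no tumour-free lung was among the samples used here.

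The CD45-positive library held 78 cycling and 752 non-cycling cells, and the CD45-negative library 15 and 45. With 1 library per fraction there was no test. Every comparison is between cells of the same library, except where both libraries are said to be summed. The 95% intervals cover counting error only. The CD45-positive library is described first, as it holds more cells, and the CD45-negative library is given beside it. The whole libraries held 47477407 and 40873786 UMI. Across all cells, 57 barcodes occurred in both libraries, and 1 of the 93 cycling cells carried such a barcode.

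Alveolar macrophages live on the surface of the airspaces, where they take up surfactant, debris and microbes. They are known to renew themselves by division in the tissue, supported by GM-CSF from the epithelium. A dividing cell copies its DNA in S phase, with the MCM helicase, the PCNA clamp and a fresh supply of nucleotides and histones. It then passes G2 and segregates its chromosomes in mitosis, driven by CDK1 with cyclins A and B and carried out by the spindle, the kinetochores and condensin. The D cyclins with CDK4 and CDK6 open this sequence, and small inhibitor proteins of the CIP and INK4 families hold it back.

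The label was checked against genes that took no part in the selection. The 11 other alveolar macrophage genes among the markers (Chil3, Siglecf, Marco, Fabp1, Fabp4, Car4, Krt79, Lpl, Pparg, Itgax and Ear1) summed to a median of 48.5 UMI per cycling cell in the CD45-positive library, against 38 UMI per non-cycling cell. The medians of the CD45-negative library were 100 and 266 UMI. Relative to depth, the medians were 9238 CPM (counts per 1000000 UMI of the cell) in cycling and 10366 CPM in non-cycling cells of the CD45-positive library. They were 16308 and 29068 CPM in the CD45-negative library, where the cycling cells were lower. The middle ranges of the 2 groups overlapped in both libraries. At least 5 UMI of the 11 genes were found in 76 of 78 cycling and 742 of 752 non-cycling cells of the CD45-positive library. The shares were 1.32% in its T cells, 4.84% in its neutrophils and 12.2% in its C1q macrophages, at median depths of 2926, 2619.5 and 3807 UMI. These T cells and neutrophils were picked with at most 2 UMI of the alveolar set, and these C1q macrophages lay outside the alveolar macrophages. Their low shares were thus set in part by how they were picked, and do not check the label. Over both libraries, 3 members had under 5 UMI of the 11 genes. A CD45-positive member of 6077 UMI had 0 UMI of the 11 genes. Another of 3844 UMI had 2 UMI of them and 90 UMI of Jchain, the joining chain of plasma cell antibodies. A CD45-negative member of 14098 UMI also had 2 UMI of them, beside 489 UMI of MHC class II genes.

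**Figure D1:**
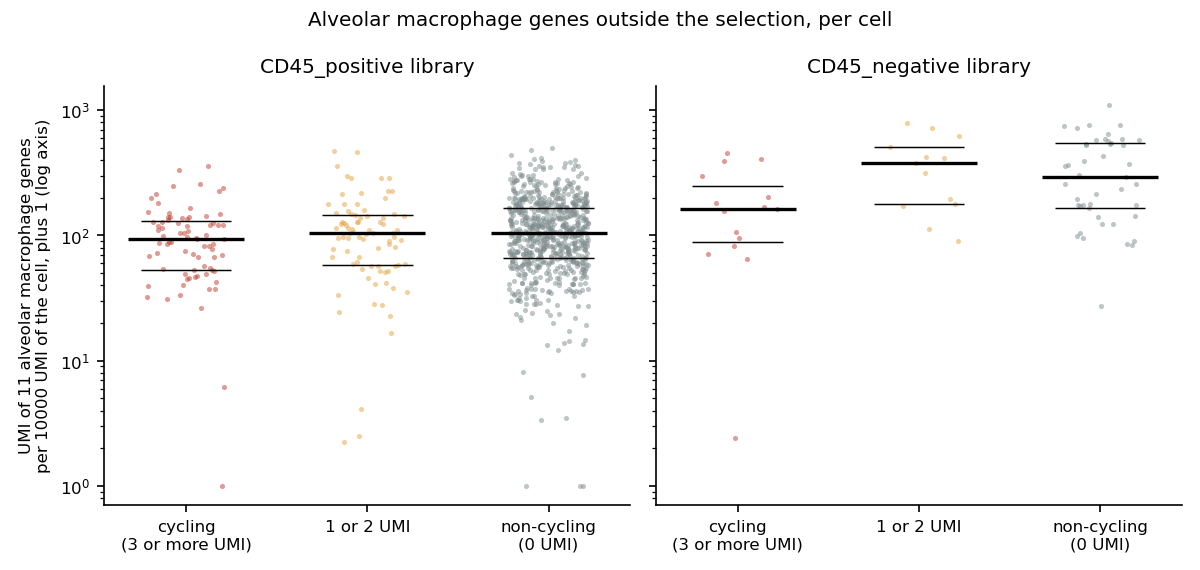
Summed UMI of 11 alveolar macrophage genes outside the selection, per 10000 UMI of the cell and with 1 added, on a log axis, with 1 point per cell and lines at the median and the lower and upper quartiles. The groups overlap in both libraries, with medians of 9238 CPM in cycling and 10366 CPM in non-cycling cells of the CD45-positive library, and 3 cycling cells lie far below the rest.

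The genes of the rule are given as a description. In the CD45-positive library Ear2, an eosinophil-associated ribonuclease typical of these cells, stood at 1023 CPM in cycling and 2009 CPM in non-cycling cells, and Plet1, a surface protein of alveolar macrophages, at 678 and 946 CPM. Atp6v0d2, a subunit of the proton pump that acidifies vesicles, stood at 484 and 543 CPM, and the mannose receptor Mrc1 at 258 and 346 CPM. Ctsk, the protease cathepsin K, was the member of this set that was higher in cycling cells, at 965 against 724 CPM. In the CD45-negative library Ear2 stood at 1816 and 2608 CPM, Plet1 at 955 and 1327 CPM, Mrc1 at 249 and 462 CPM, and Ctsk at 1129 and 1070 CPM. Of the division genes, Top2a (topoisomerase II alpha, which untangles DNA) was found in 73 of the 78 CD45-positive members at 416 CPM. Mki67 (the Ki-67 coat of mitotic chromosomes) was found in 59 members, Cdk1 in 57 and Cenpf (a kinetochore protein) in 46. Of the 15 CD45-negative members, Mki67 and Top2a were found in 13, Cdk1 in 11 and Cenpf in 10. Of the 93 members, 15 had exactly 3 UMI of the division genes, and 16 cells just outside had 2 UMI. Likewise 7 members had exactly 6 UMI of the alveolar set, and 4 cells otherwise alike had 5.

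Cycling cells made up 8.54% of the alveolar macrophages in the CD45-positive library (6.81 to 10.5%, Clopper-Pearson interval), or 78 of 913. Their share in the CD45-negative library was 20.5% (12 to 31.6%), or 15 of 73. By the same limit on the division genes, 4.65% of cells with at least 3 UMI of Cd3 genes were cycling (3.8 to 5.64%), and 5.16% of C1q macrophages, cells with at least 6 UMI of C1q genes (2.61 to 9.05%). In cells picked by at least 20 UMI of S100a8 and other neutrophil genes, a type that does not divide in tissue, the share was 1.61% (0.196 to 5.70%). Median depths differed, at 3806 UMI in alveolar macrophages, 2926 in T cells, 3807 in C1q macrophages and 2619.5 in neutrophils. With each cell thinned to 2000 UMI, the share with any UMI of the division genes was 11.9% in alveolar macrophages (17.6% unthinned). It was 10.6% in T cells, 9.39% in C1q macrophages and 4.84% in neutrophils. Whether the last is the background level of this library was not tested. The interval of alveolar macrophages (9.91 to 14.2%) overlapped those of T cells, C1q macrophages and neutrophils (1.80 to 10.2%). At a limit of 3 UMI after thinning, the shares were 3.83% in alveolar macrophages (2.68 to 5.29%), 1.5% in T cells (1.03 to 2.12%), 0.94% in C1q macrophages (0.11 to 3.35%) and 0 of 124 in neutrophils (up to 2.93%), of which the last 2 overlap the interval of alveolar macrophages.

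The share moved with depth in the CD45-positive library. In 4 groups of its alveolar macrophages of rising depth, with medians of 2578, 3357.5, 4419 and 6286.5 UMI, cycling cells made up 2.62%, 3.07%, 7.46% and 21.1%. After thinning every cell to 2000 UMI, the share with at least 1 UMI of the division genes was 8.73%, 7.89%, 9.65% and 21.5% in the same groups, so the deepest group stood apart at equal sampling too. The CD45-negative library, with 18 or 19 cells a group, had shares of 21.1%, 16.7%, 11.1% and 33.3% with no such order. Cycling cells had a median of 5674.5 UMI (quartiles 4330 and 7250), against 3628 UMI (2881 and 4790) in non-cycling cells of the CD45-positive library, and of 10585 against 8740 UMI in the CD45-negative library. At 2000 UMI each, they showed a median of 981 genes against 915.5, and of 1048 against 943. The part of the count-based rule and of doublets in the difference in UMI was not tested.

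**Figure D2:**
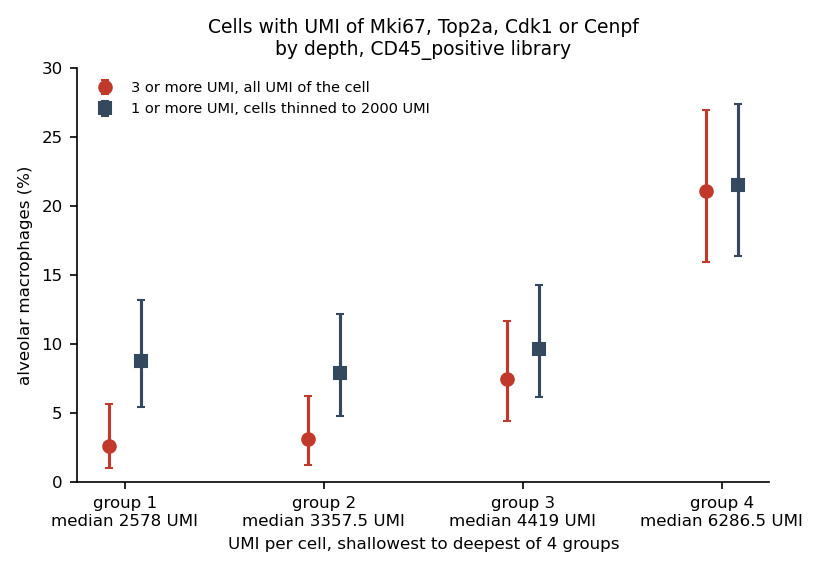
Share of alveolar macrophages of the CD45-positive library with UMI of the division genes, in 4 groups of rising depth, at the limit of 3 UMI and, with each cell thinned to 2000 UMI, at a limit of 1 UMI; bars are 95% Clopper-Pearson intervals. The deepest group holds 21.1% and 21.5%, above the other groups on both scales.

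By the medians of genes kept, genes of G2 and mitosis stood furthest above the non-cycling cells. The division genes of the rule belong mostly to these phases, and their part in this order was not tested. Beyond the rule, 30 of the 49 genes of the G2/M list had at least 5 UMI expected in the CD45-positive cycling cells and were kept. Of these, 29 were at least 2-fold higher in cycling cells and none was 2-fold lower, beside 5.17% higher and 5.34% lower of all 6775 genes kept. The median log2 ratio was 4.01, beside 0.03 over all genes kept. In the CD45-negative library 25 of 25 genes kept were higher, beside 10.3% higher and 9.1% lower of all 4350 genes, with a median of 3.75 beside 0.02. Since genes of division vary together, these values describe the cells that the rule picks and support nothing further. The filter counts the UMI of both groups together. Genes with few UMI in non-cycling cells, such as Cenpe (55 against 4 UMI), thus passed it only through the cycling cells. Counts of higher genes among those kept are therefore partly set by the filter, here and in the other division lists.

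Ube2c, the ubiquitin-conjugating enzyme that serves the anaphase-promoting complex, had 263 UMI in 62 of 78 cycling cells and 22 UMI in 20 of 752 non-cycling cells of the CD45-positive library. Its ratio of CPM was 78.6 (50.9 to 128), and in the CD45-negative library it had 78 UMI against 1 UMI. Birc5, the survivin subunit of the chromosomal passenger complex, had 222 UMI in 65 cycling cells and 27 UMI in 23 non-cycling cells, a ratio of 54.1 (36.2 to 83.9). Nusap1, a protein that bundles spindle microtubules, had 78 UMI in 47 cycling cells and 2 UMI in non-cycling cells, a ratio of 257 (68.7 to 2156). Cenpe, the motor that moves chromosomes to the spindle equator, had 55 UMI against 4 UMI, a ratio of 90.4. Hmgb2, a chromatin protein with a high level in dividing cells, had 497 UMI in 73 cycling cells against 333 UMI in 251 non-cycling cells, a ratio of 9.82 (8.53 to 11.3). The transcripts with few UMI in non-cycling cells were thus the ones with the highest ratios and the widest intervals.

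Of 36 genes of the spindle and kinetochore list, 17 were kept in the CD45-positive library. Of these, 16 were at least 2-fold higher, beside 5.17% of all genes kept. The median log2 ratio was 3.85 (3.99 in the CD45-negative library). Spc25, a subunit of the NDC80 complex that ties microtubules to kinetochores, had 49 UMI against 2 UMI, a ratio of 161. Prc1, which holds the midzone of the anaphase spindle together, had 85 against 11 UMI, a ratio of 50.8. Stmn1, a protein that destabilises microtubules, had 566 UMI in 74 of 78 cycling cells against 152 UMI in 104 of 752 non-cycling cells, a ratio of 24.5 (20.4 to 29.5) and of 24.6 in the CD45-negative library. The tubulins Tuba1b and Tubb5 stood at 1449 and 1466 CPM in cycling cells and at 314 and 256 CPM in non-cycling cells. All 14 genes kept of the condensin, cohesin and chromatin list were at least 2-fold higher, beside the same 5.17%, with a median of 1.97 (2.51 in the CD45-negative library). Smc2, a core condensin subunit, had a ratio of 16.9, and H2afz, the histone variant H2A.Z, one of 3.37, with 1439 UMI in all 78 cycling cells.

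The promoters of these genes are shown because their members were high together and because genes of late division are known to carry a pair of promoter elements, the CHR element and CCAAT boxes, while genes of S phase carry E2F sites. Letters were searched on both strands of RefSeq windows from 250 bases before to 50 bases after a start (GRCm38.p6). They were TTTGAA or TTCGAA for CHR, CCAAT, and TTTGGCGC, TTTCCCGC, TTTGCCGC or TTTCGCGC for E2F. The late list was made of the G2/M and spindle lists with Ccnb1, Ccna2 and Plk1 added from the list of cyclins and kinases. Of its 88 genes, 74 matched with 85 windows, of which 64.7% held CHR letters, 71.8% held CCAAT and 5.88% held E2F letters. Of 66 genes of the S phase and replication lists, 50 matched with 58 windows, and the shares were 19.0%, 62.1% and 36.2%. Among all 32851 windows of the table, the shares were 19.2%, 37.4% and 2.26%. The CHR share thus stood above that of all windows in the late list and near it in the S phase list, and the E2F share was highest in the S phase list. The 250 bases before the start are given 5′ to 3′ on the strand of the gene, with matches in capitals. They are chr10:69352913-69353162 (minus strand) for Cdk1, chr11:99024190-99024439 (minus) for Top2a, chr2:164769679-164769928 (plus) for Ube2c and chr1:128359706-128359955 (minus) for Mcm6, a helicase subunit of the S phase list. The last is chr9:65890073-65890322 (plus) for Pclaf, which the files name 2810417H13Rik.
Cdk1: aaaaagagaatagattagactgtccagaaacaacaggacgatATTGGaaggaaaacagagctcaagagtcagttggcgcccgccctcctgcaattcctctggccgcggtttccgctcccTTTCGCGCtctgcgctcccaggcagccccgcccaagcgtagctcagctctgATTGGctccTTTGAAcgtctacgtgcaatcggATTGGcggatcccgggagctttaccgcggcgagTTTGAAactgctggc
Top2a: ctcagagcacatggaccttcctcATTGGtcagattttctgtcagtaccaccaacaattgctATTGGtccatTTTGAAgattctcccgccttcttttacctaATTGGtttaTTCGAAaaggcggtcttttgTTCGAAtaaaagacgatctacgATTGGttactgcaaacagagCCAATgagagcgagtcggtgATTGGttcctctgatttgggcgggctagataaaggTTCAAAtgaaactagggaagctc
Ube2c: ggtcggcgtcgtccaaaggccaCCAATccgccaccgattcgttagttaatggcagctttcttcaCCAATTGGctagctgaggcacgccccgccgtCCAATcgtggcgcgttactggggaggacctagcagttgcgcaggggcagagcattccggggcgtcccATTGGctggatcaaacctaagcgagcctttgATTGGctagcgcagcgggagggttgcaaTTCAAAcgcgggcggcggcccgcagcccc
Mcm6: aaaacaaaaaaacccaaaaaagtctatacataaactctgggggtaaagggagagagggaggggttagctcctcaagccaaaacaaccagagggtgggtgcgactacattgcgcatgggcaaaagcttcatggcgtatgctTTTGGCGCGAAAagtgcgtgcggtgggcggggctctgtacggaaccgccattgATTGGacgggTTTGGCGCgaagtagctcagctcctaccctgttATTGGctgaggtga
Pclaf: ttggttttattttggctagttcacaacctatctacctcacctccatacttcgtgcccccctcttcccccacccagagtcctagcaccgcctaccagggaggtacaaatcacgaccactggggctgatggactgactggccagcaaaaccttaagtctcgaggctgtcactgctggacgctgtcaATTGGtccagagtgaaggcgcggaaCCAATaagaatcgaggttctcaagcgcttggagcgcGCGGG

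In this set the windows of Cdk1, Top2a and Ube2c held CHR letters within 30 bases before the start together with several CCAAT boxes, and that of Cdk1 also held E2F letters. Those of Mcm6 and Pclaf held no CHR letters and held E2F letters, of which the last 5 capitals of Pclaf are the part before its start. Capitals of Ube2c include a pair of CCAAT boxes that overlap on opposite strands, and those of Mcm6 include overlapping E2F matches. The window of Nusap1, the gene with the highest ratio outside the rule, held none of these letters. A match is letters in a window and was not tested as a binding site.

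S phase genes were higher as well, by less in the medians of genes kept. Of 42 genes in the S phase list, 19 were kept in the CD45-positive library. Of these, 15 were at least 2-fold higher and none was 2-fold lower, beside 5.17% higher and 5.34% lower of all genes kept. The median log2 ratio was 1.90, and 2.77 in the CD45-negative library, where 18 of 18 genes kept were higher, beside 10.3% of all genes. Pcna, the sliding clamp of the replication fork, had 58 UMI in 35 cycling cells and 123 UMI in 109 non-cycling cells, a ratio of 3.10 (2.23 to 4.27), and in the CD45-negative library 68 against 13 UMI, a ratio of 11.3 (6.20 to 22.4). Rrm2, the regulated subunit of ribonucleotide reductase, had 51 UMI against 10 UMI, a ratio of 33.5 (16.8 to 74.1), and 51 against 0 UMI in the CD45-negative library, at least 36.8-fold higher by a floor of 3 counts. Gmnn, the inhibitor that keeps origins from firing again, had a ratio of 4.04. Slbp, which binds the end of histone mRNA, had one of 1.97, just under 2-fold. Of the 24 genes of the replication fork list, 14 were kept in the CD45-positive library and 13 were higher, beside 5.17% of all genes kept. The medians were 2.37 and 3.60 in the 2 libraries. Over all measured genes with a ratio in the CD45-negative library, the medians were 2.99 for G2/M, 2.59 for S phase and 3.02 for the replication fork. The order thus depended on the filter there. Tk1, the thymidine kinase that salvages a DNA precursor, had 45 against 10 UMI, a ratio of 29.6, and 53 against 0 UMI in the CD45-negative library. Mcm3, Mcm6 and Mcm7, subunits of the helicase, had ratios of 5.07, 6.37 and 6.38.

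Pclaf, a partner of PCNA at the fork listed as 2810417H13Rik, was in none of the lists and had the highest ratio outside them. It had 236 UMI in 62 of 78 cycling cells and 29 UMI in 23 of 752 non-cycling cells, a ratio of 53.5 (36.3 to 81.7), and 177 against 0 UMI in the CD45-negative library. Other genes outside the lists with high ratios were Ube2t, a ubiquitin-conjugating enzyme of DNA repair (20.4), and Lockd, a long noncoding RNA next to Cdkn1b (13.5, with 31 against 0 UMI in the CD45-negative library). Topbp1, a replication checkpoint protein, had a ratio of 9.21, Nrm, a protein of the inner nuclear membrane, one of 8.01, and Ube2s, which extends ubiquitin chains on substrates of the anaphase-promoting complex, one of 6.42. Arhgap11a and Tuba1c, an alpha tubulin, had ratios of 6.37 and 6.19. Ubd also passed by its ratio of 8.60, but 31 of its 34 UMI lay in 1 cell. Of the 350 genes of the CD45-positive library that were past 2-fold and higher, 98 were in a cell cycle list and 252 were in none. These 350 were 5.17% of the 6775 genes kept, beside 5.34% that were 2-fold lower. The share of cell cycle list genes among all genes kept is not given here, so the split is no result about either part. With at least 20 UMI expected, 74 genes were higher and 26 of them were in a cell cycle list.

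Cyclins divided by phase. Ccna2, the cyclin of S phase and G2, had 82 UMI in 42 cycling cells and 7 UMI in 7 non-cycling cells, a ratio of 77.1 (35.8 to 198), and 38 against 1 UMI in the CD45-negative library. Ccnb1, the mitotic cyclin that activates CDK1, had 65 UMI against 3 UMI, a ratio of 143 (46.7 to 709), and Ccnb2 86 against 19 UMI, a ratio of 29.8. The D cyclins were near or below 1. Ccnd2, the D cyclin with the most UMI, had 129 UMI in 59 cycling cells and 1092 UMI in 511 non-cycling cells, a ratio of 0.78 (0.64 to 0.93) and of 0.60 in the CD45-negative library. Ccnd3 had a ratio of 1.11 (0.79 to 1.54) and Ccnd1 one of 0.86 (0.38 to 1.73). Their partner kinases differed, Cdk4 with a ratio of 1.69 (1.19 to 2.37) and of 4.02 (2.31 to 7.20) in the CD45-negative library, and Cdk6 with 0.81 (0.52 to 1.21). Cdk2, the kinase of the G1 to S step, had 12 against 35 UMI, a ratio of 2.26 (1.07 to 4.45), and Cdc25b, a phosphatase that activates CDK1, had 53 UMI in each group, a ratio of 6.58. Of 18 genes in the list of cyclins and kinases, 9 were kept and 4 were at least 2-fold higher, beside 5.17% of all genes kept. The median log2 ratio was 0.76 (1.82 in the CD45-negative library).

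The CDK inhibitors differed among themselves. Of 13 genes in the list of inhibitors and antiproliferative factors, 11 were kept, 3 were at least 2-fold higher and 1 was lower. Beside them, 5.17% of all genes kept were higher and 5.34% lower. The median log2 ratio of the list was -0.24. Cdkn2c (p18 INK4c) had 28 UMI in 23 of 78 cycling cells and 22 UMI in 21 of 752 non-cycling cells, a ratio of 8.37 (4.62 to 15.4), and 10 against 0 UMI in the CD45-negative library. Cdkn2d (p19 INK4d) had 41 against 58 UMI, a ratio of 4.65 (3.04 to 7.06) and of 5.06 (1.82 to 16.1) in the CD45-negative library. Both INK4 genes were therefore higher in the cycling cells of both libraries. Cdkn2a, whose 3' end is shared by the transcripts of p16 INK4a and p19 ARF, went the other way. It had 12 UMI in 10 of 78 cycling cells and 202 UMI in 97 of 752 non-cycling cells, a ratio of 0.39 (0.20 to 0.70), and in the CD45-negative library 5 against 63 UMI, a ratio of 0.17 (0.054 to 0.42). Against non-cycling cells of like depth its log2 ratio was -1.51, and with every cell thinned to 2000 UMI it was -0.87, under 2-fold. Cdkn1a (p21), a target of p53, had 150 UMI in 52 cycling cells against 581 UMI in 302 non-cycling cells, a ratio of 1.70 (1.41 to 2.04) and of 1.32 (0.97 to 1.80) in the CD45-negative library. Cdkn1a was thus detected in most cycling cells of the CD45-positive library, at a higher mean level than in non-cycling cells, while the CD45-negative library without its deepest cycling cell gave a log2 ratio of 0.08. Ccng2, a cyclin of arrested cells, had a ratio of 3.10 (1.85 to 5.08) but a log2 ratio of 0.41 in cells with no lymphocyte UMI, and Btg1, an antiproliferative factor, one of 0.68 (0.60 to 0.78) and of 0.71 in the CD45-negative library.

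**Figure D3:**
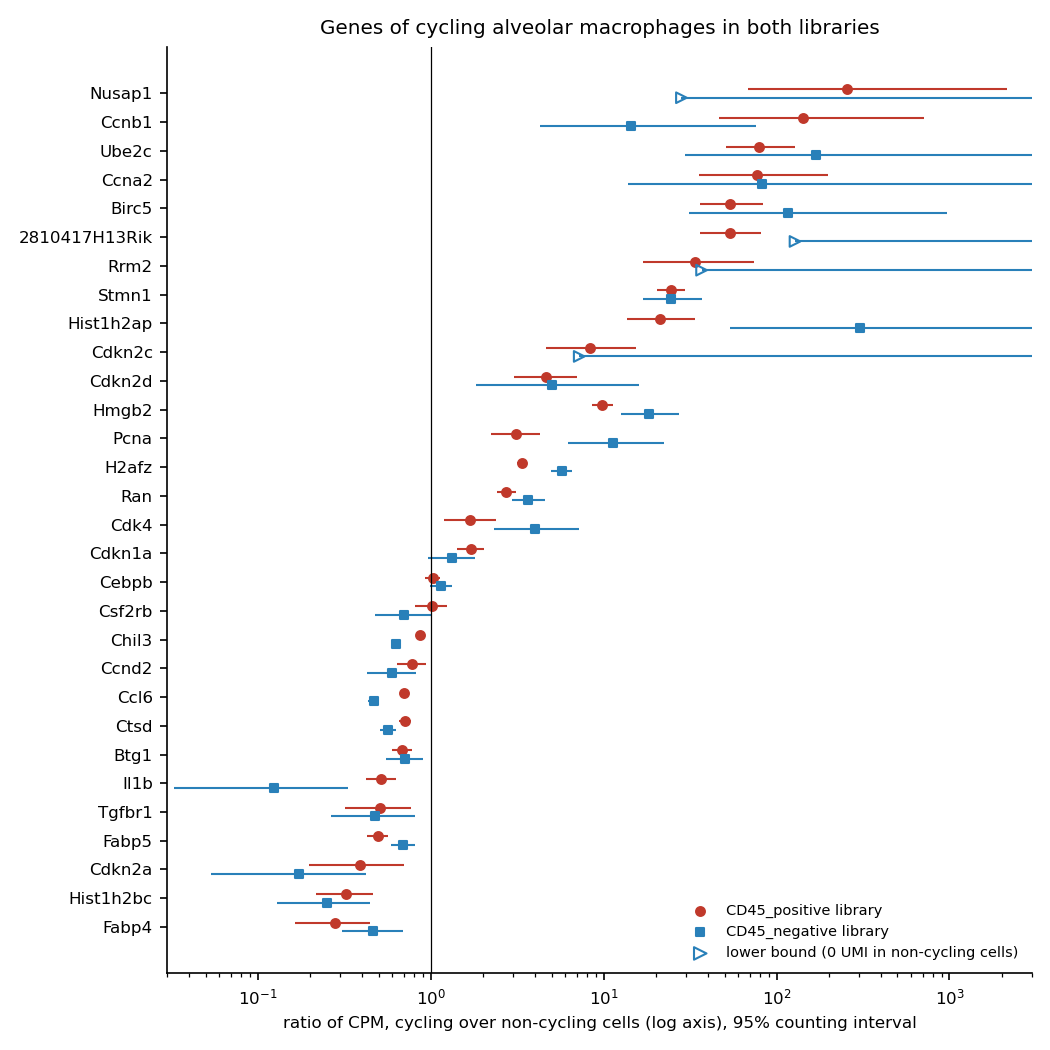
Ratio of CPM in cycling over non-cycling cells for 30 genes in each library, on a log axis, with 95% counting intervals; open arrowheads are lower bounds from a floor of 3 counts where non-cycling cells had 0 UMI, and intervals that run past the axis are clipped. Cdkn2c and Cdkn2d lie right of 1 and Cdkn2a left of 1 in both libraries, while Cebpb and Csf2rb lie near 1 in the CD45-positive library.

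Regulators of the programme and histones showed a mixed picture. Of 15 genes of the E2F, RB and DREAM list, 8 were kept and, beside 5.17% of all genes kept, 3 were at least 2-fold higher. These were E2f2 (a ratio of 3.01), an activating E2F factor, and Rbl1 (2.33) and Lin54 (2.77), of which Rbl1 is the RB relative p107 and Lin54 the DREAM subunit that binds CHR elements. The direction of both flipped in 1 alternative each, Rbl1 to a log2 ratio of -0.38 in cells with no lymphocyte UMI and Lin54 to -0.17 in the CD45-negative library without its deepest cycling cell. Of 31 histone genes measured, 3 had enough UMI. Hist1h2ap had 90 UMI in 36 cycling cells against 28 UMI in 20 non-cycling cells, a ratio of 21.1 (13.7 to 33.6), and 140 against 1 UMI in the CD45-negative library. Hist1h2bc was lower, with 31 UMI in 21 cycling cells against 631 UMI in 353 non-cycling cells, a ratio of 0.32 (0.22 to 0.46) and of 0.25 in the CD45-negative library. Hist1h1c, a linker histone, had a ratio of 0.71 (0.39 to 1.19). Histone genes, like the Ear, tubulin, globin and HMG genes, have near-identical copies among which the deposited counting could split or drop reads, so their values are uncertain.

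Each cycling cell was placed between S phase and mitosis by its share of G2/M list UMI among the UMI of both lists, without the genes of the rule. The median share was 81.4% in the CD45-positive library and 72.2% in the CD45-negative library, and it was 75.7% in the 99 cycling T cells of the CD45-positive library. Values ran from 0% to 100% in the CD45-positive library, with quartiles of 74.0% and 87.5%, and from 50% to 94.6% in the CD45-negative library. The ends of this range can rest on few UMI. At least 10 UMI of both lists were found in 76 of 78 CD45-positive members, and the lowest level of both lists was 0.044% of the UMI of a member. Of 78 CD45-positive members, 64 lay in the upper of 3 equal ranges, 12 in the middle and 2 in the lowest. The CD45-negative members numbered 9 in the upper and 6 in the middle range. Over both libraries 13 members lay within 5 points of the upper edge, so this is a range and not a set of classes. The 4 genes of the rule belong mostly to G2 and mitosis, and their part in where the members fall was not tested.

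**Figure D4:**
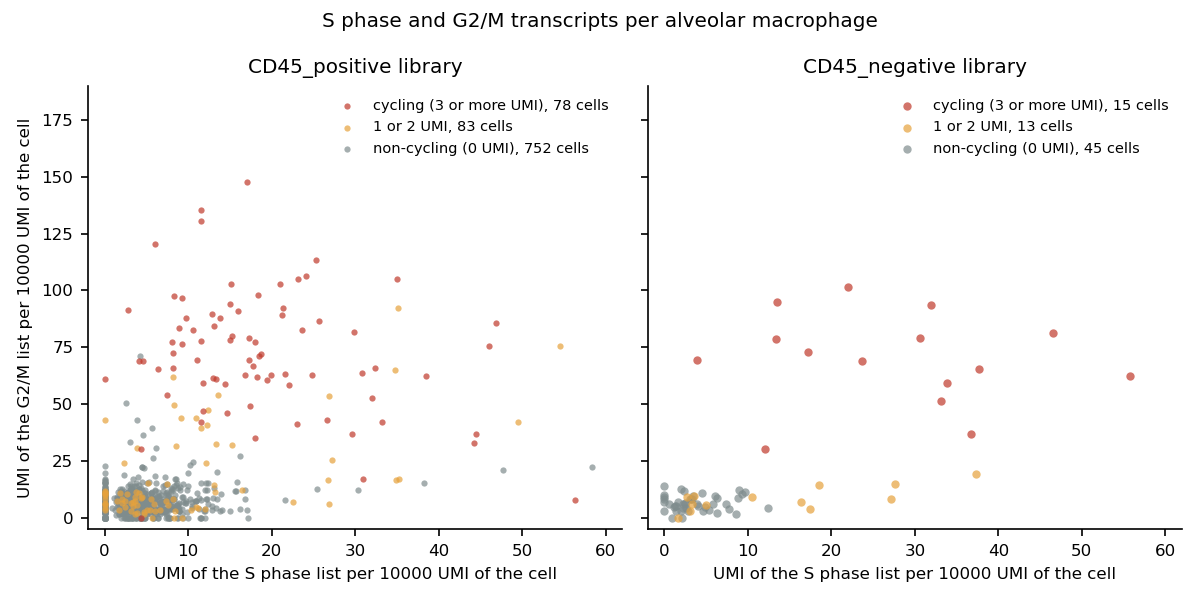
UMI of the S phase list (x axis) and of the G2/M list (y axis) per 10000 UMI of the cell, 1 point per alveolar macrophage, without the genes of the rule. Cycling cells spread upward and to the right of the non-cycling cells in both libraries, with the G2/M list making up a median of 81.4% and 72.2% of the UMI of both lists.

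Genes left out of both phase lists were compared within the CD45-positive library, between the 64 members of the upper range and the other 14. Of 24 genes of the replication fork list, 14 had at least 20 UMI in these cells, 11 had a ratio below 1, 3 had an interval below 1 (Orc6, Lig1 and Dut) and none had one above 1, with a median ratio of 0.69. Dut, which clears dUTP before replication, had 28 against 18 UMI, a ratio of 0.32 (0.17 to 0.61), and the ligase Lig1 one of 0.37 (0.16 to 0.90). Of 18 genes of the list of cyclins and kinases, 8 had that many UMI, 2 had an interval above 1 and none had one below 1, with a median of 1.61. These 2 were Ccna2, with 75 against 7 UMI and a ratio of 2.20 (1.02 to 5.67), and Ccnb1, with 62 against 3 UMI and a ratio of 4.25 (1.39 to 21.2). Of 36 genes of the spindle list, 25 had that many UMI, 5 had an interval above 1 and none had one below 1. With both libraries summed, which mixes library and range, the medians were 0.57 for the fork, 1.01 for cyclins and kinases and 1.05 for the spindle. Intervals above and below 1 then numbered 0 and 5, 3 and 1, and 2 and 2. Most genes of these lists thus had intervals that include 1. Genes named after their values were seen were Pclaf, at 0.63 (0.47 to 0.86), Cdkn2d, with 39 against 2 UMI, at 4.01 (1.04 to 34.3), and Cdkn2a, with 10 against 2 UMI, at 1.03 (0.22 to 9.65).

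Genes of alveolar macrophage identity were close to, or below, the level of non-cycling cells. Of 26 genes of the list in the table, 25 were kept in the CD45-positive library, none was at least 2-fold higher, 2 were 2-fold lower, beside 5.34% lower of all genes kept, and the median log2 ratio was -0.11. So small a count is near that share and is no result about the list. Their summed level was 20743 CPM in cycling and 24991 CPM in non-cycling cells, a ratio of 0.83 (0.81 to 0.85). In the CD45-negative library the sums were 36567 and 55616 CPM, a ratio of 0.66 (0.64 to 0.67), with a median of -0.36. There 3 of 26 genes were higher and 4 lower, beside 10.3% higher and 9.1% lower of all genes kept, so these counts too are no result about the list. Chil3, the chitinase-like protein Ym1 and the gene of the list with the most UMI, had 3931 UMI in 77 of 78 cycling cells against 29979 UMI in 745 of 752 non-cycling cells. Its ratio was 0.86 (0.83 to 0.89), and 0.63 in the CD45-negative library. Ccl6, a chemokine made by these cells, had a ratio of 0.70 (0.66 to 0.74) and of 0.47 in the CD45-negative library. Cd9, a tetraspanin, and Lgals3, a lectin, had ratios of 0.83 and 0.89.

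The members of the list past 2-fold were both fatty acid carriers. Fabp4 had 18 UMI in 9 of 78 cycling cells and 423 UMI in 147 of 752 non-cycling cells, a ratio of 0.28 (0.16 to 0.45) and of 0.47 (0.31 to 0.69) in the CD45-negative library. Fabp5 had 221 UMI in 54 cycling cells and 2936 UMI in 570 non-cycling cells, a ratio of 0.50 (0.43 to 0.57) and of 0.69 (0.59 to 0.81) in the CD45-negative library. Both stayed below 1 in every alternative run, Fabp4 between -2.82 and -0.80 and Fabp5 between -1.45 and -0.53 on the log2 scale. Other members were chosen after their values were seen. Among these, Fabp1 had a ratio of 1.42 (1.22 to 1.63) in the CD45-positive and of 0.77 (0.54 to 1.08) in the CD45-negative library, so carriers of the same family differed. Lpl, the lipoprotein lipase, had a ratio of 0.71 and 0.56, and Pparg, the nuclear receptor that sets up these cells, one of 1.18 (0.79 to 1.70) and 1.91 (0.89 to 4.07). The scavenger receptor Marco and the ribonuclease Ear1 differed between the libraries, with ratios of 0.84 (0.57 to 1.19) and 1.02 (0.86 to 1.22) in the CD45-positive library against 3.40 (2.19 to 5.36) and 3.52 (2.64 to 4.71) in the CD45-negative library. There 31 of the 55 cycling UMI of Marco and 38 of the 130 of Ear1 lay in 1 cell each, and without that cell the ratios were 1.72 (0.98 to 2.97) and 3.06 (2.24 to 4.18).

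Of the receptors and transcription factors tied to self-renewal, 21 of 23 were kept in the CD45-positive library. None was 2-fold higher and 2 were 2-fold lower, beside 5.34% lower of all genes kept. In the CD45-negative library 18 were kept and 3 were lower, beside 9.1% of all genes kept. The median log2 ratios were -0.03 and -0.49. Csf2rb, the signalling chain of the GM-CSF receptor, had 102 UMI in 51 cycling cells against 664 UMI in 394 non-cycling cells, a ratio of 1.01 (0.81 to 1.25) and of 0.70 (0.47 to 1.01) in the CD45-negative library. Spi1 (PU.1) and Cebpb, factors of the myeloid lineage, had ratios of 0.93 (0.77 to 1.10) and 1.02 (0.93 to 1.13). Klf4, a zinc finger factor, had a ratio of 0.72 (0.55 to 0.93). Egr2, an early growth response factor, was 1 of the 2 lower genes of the CD45-positive library, at 0.49 (0.22 to 0.97), with 9 UMI in the cycling cells. Thinned to 2000 UMI, Egr2 stood at a log2 ratio of -0.15. Tgfbr1, a receptor of TGF-beta, was chosen after its value was seen, with 24 against 311 UMI, a ratio of 0.51 (0.32 to 0.77) and of 0.48 (0.26 to 0.82) in the CD45-negative library.

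Lysosomal and phagocytic genes were lower by small amounts. All 20 genes in the table were kept, none passed 2-fold, and the median log2 ratio was -0.25, and -0.67 in the CD45-negative library. The sums were 9477 CPM in cycling and 12331 CPM in non-cycling cells, a ratio of 0.77 (0.74 to 0.79), and 12063 and 17524 CPM in the CD45-negative library. Ctsd and Ctss, lysosomal proteases, had ratios of 0.71 (0.66 to 0.77) and 0.69 (0.65 to 0.74) in the CD45-positive library and of 0.57 and 0.78 in the CD45-negative library. Npc2, which carries cholesterol out of the lysosome, had ratios of 0.79 and 0.64.

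**Figure D5:**
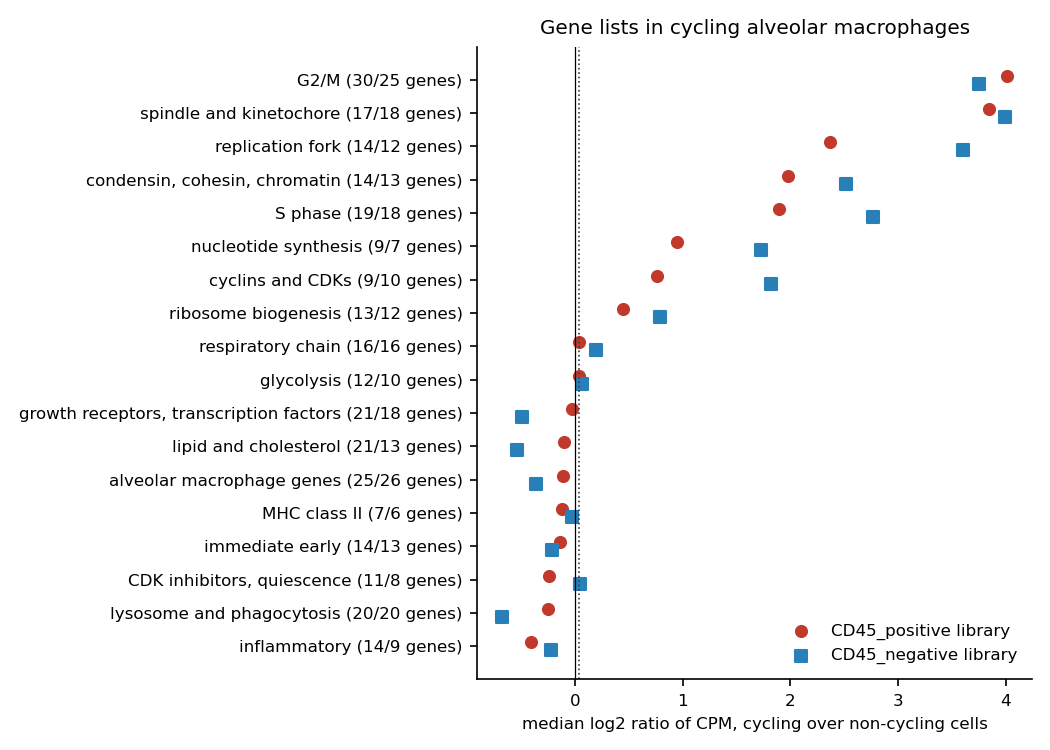
Median log2 ratio of CPM in cycling over non-cycling cells for 18 gene lists in each library, without the genes of the rule, with the number of genes kept in the CD45-positive and the CD45-negative library in brackets; the dotted line is the median of all genes kept in the CD45-positive library. Division lists lie to the right, up to 4.01, and the lysosomal list at -0.25 and -0.67.

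Genes that supply growth had positive medians in part of the lists. Of 13 genes of ribosome biogenesis, all were kept, 2 were at least 2-fold higher, beside 5.17% of all genes kept, and the median log2 ratio was 0.44 (0.79 in the CD45-negative library, with 3 of 12 higher beside 10.3%). Ran, the GTPase of nuclear transport and spindle assembly, had 345 UMI in 73 cycling cells against 830 UMI in 467 non-cycling cells, a ratio of 2.73 (2.40 to 3.10) and of 3.67 in the CD45-negative library. Nop56, a nucleolar protein, had a ratio of 2.10 (1.41 to 3.06), and Npm1, nucleophosmin, one of 1.18 (1.03 to 1.34). Of 14 genes of nucleotide and one-carbon metabolism, 9 were kept and 4 were at least 2-fold higher, beside 5.17% of all genes kept. The median was 0.95 (1.73 in the CD45-negative library). The 4 genes were Tyms, the thymidylate synthase (7.37), Mthfd2 of the mitochondrial folate pathway (2.55), Umps of pyrimidine synthesis (2.33) and Impdh2 of guanine nucleotide synthesis (2.02). Glycolysis and the respiratory chain stood at medians of 0.03 and 0.04, with no gene past 2-fold in the CD45-positive library. Of 24 lipid and cholesterol genes, 21 were kept in the CD45-positive library, none was 2-fold higher and 1 was 2-fold lower, beside 5.34% lower of all genes kept. Their median was -0.10 (-0.54 in the CD45-negative library).

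Inflammatory genes were lower in their medians, and antigen-presenting genes were nearly level. Of 16 inflammatory genes, 14 were kept, none was 2-fold higher and 2 were lower, beside 5.34% lower of all genes kept. The median log2 ratio was -0.41 (-0.23 in the CD45-negative library). Il1b, the cytokine interleukin-1 beta, had 108 UMI in 40 cycling cells against 1369 UMI in 400 non-cycling cells, a ratio of 0.52 (0.42 to 0.63), and in the CD45-negative library 4 against 70 UMI, a ratio of 0.12 (0.033 to 0.33). Cxcl2, a chemokine for neutrophils, had a ratio of 0.82 (0.71 to 0.93) and of 0.37 in the CD45-negative library. The members past 2-fold were the chemokines Ccl4 and Cxcl1, at 0.24 (0.14 to 0.37) and 0.44 (0.16 to 0.99). Without the non-cycling cell with most UMI of each, 137 of 530 and 47 of 90, the ratios were 0.32 (0.19 to 0.50) and 0.92 (0.32 to 2.16). Ccl4 had a ratio of 2.03 (0.94 to 4.39) in the CD45-negative library, where all 15 cycling UMI lay in 1 cell. Of 13 interferon response genes, 8 were kept. Among them 1 was 2-fold higher and 2 were lower, beside 5.17% higher and 5.34% lower of all genes kept. Cxcl10, a chemokine for T cells, was 2-fold higher, but 46 of its 69 UMI lay in 1 cycling cell, and its log2 ratio was 0.20 in cells with at least 10 alveolar UMI. Ifit1 and Irf7 were lower, with 0 against 50 UMI and 1 against 49 UMI, while Irf7 had 1 against 2 UMI and a ratio of 1.08 in the CD45-negative library. All 14 immediate early and stress genes, such as Fos and Jun, were kept and none passed 2-fold, with a median of -0.14 (-0.21 in the CD45-negative library). The 7 MHC class II genes were all kept in the CD45-positive library and none passed 2-fold, with a median of -0.12. In the CD45-negative library 6 were kept, with a median of -0.03, 2 intervals above 1 and 1 below. There H2-Aa and H2-Eb1 had ratios of 1.15 (1.05 to 1.27) and 1.19 (1.05 to 1.35). Cd74, the invariant chain, had ratios of 0.87 (0.85 to 0.90) and 1.0 (0.94 to 1.06) in the CD45-positive and the CD45-negative library.

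The lowest ratios belonged to genes of other cells and to rare transcripts. C1qa, C1qb and C1qc, subunits of complement C1q and markers of interstitial macrophages, had 1, 3 and 0 UMI in cycling cells against 218, 220 and 165 UMI in non-cycling cells. The ratio of the last is at most 0.12 by the floor of 3 counts. Of the C1q UMI in non-cycling cells, 534 of 603 lay in the 19 of 752 cells that had at least 3 such UMI. In cycling cells 0 of 78 reached that limit. By the floor of 3 counts this allows a share of up to 3.85%, so the 2 groups cannot be told apart by that share. Saa3, an acute phase protein, had 1 against 111 UMI, of which 77 lay in 1 non-cycling cell, and Hbb-bt, a haemoglobin chain, had 8 against 413 UMI, of which 309 lay in 1 cell. The small heat shock protein Hspb1 and Dhcr7, an enzyme of cholesterol synthesis, had 1 UMI each against 71 and 59 UMI, and 3110043O21Rik, Plscr3, 1110012L19Rik, Kcnn4 and Mapk9, also among the lowest, had 1 UMI each against 53 to 57 UMI. With these counts the directions of Hspb1, Kcnn4 and Mapk9 flipped in the CD45-negative library without its deepest cycling cell, to log2 ratios of 0.09, 0.09 and 0.19.

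Markers of other cell types were summed beside these results. The 3 T cell genes outside the rule summed to 60.3 CPM in cycling and 80.2 CPM in non-cycling cells of the CD45-positive library. The 2 B cell genes summed to 6.46 and 13.4 CPM, and the NK cell list to 8.61 and 21.3 CPM, with 2 of its 4 genes at 0 in cycling cells. All 3 sums were at 0 in both groups of the CD45-negative library. The monocyte list summed to 243 and 368 CPM (Vcan at 0 in cycling cells) and the neutrophil list to 484 and 807 CPM. The lists of type 2 epithelial, endothelial and red blood cells summed to 1216 and 1817, to 164 and 248, and to 370 and 971 CPM. Their sums in the CD45-negative library were 2502 and 3267, 453 and 482, and 677 and 3931 CPM. Of the red blood cell UMI in non-cycling cells, 1963 of 2967 and, in the CD45-negative library, 1410 of 1712 lay in 1 cell. Without that cell the ratios were 1.12 (0.95 to 1.32) and 0.95 (0.77 to 1.16) in place of 0.38 and 0.17, and the direction in the CD45-positive library also flipped in cells with no lymphocyte UMI, to a log2 ratio of 0.90. The plasma cell list was higher in cycling cells of the CD45-positive library, at 1197 against 933 CPM, but 230 of its 556 UMI lay in 1 cell, without which the ratio was 0.76 (0.67 to 0.85). The conventional dendritic cell list summed to 25.8 and 27.2 CPM. The mast cell list had 1 UMI in each group, and the type 1 epithelial list summed to 45.2 and 41.9 CPM. Their part in the results was not tested.

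Both libraries shared most of the genes that were higher in the larger one. The same rule picked the cells of each library, and its 4 division genes are among the shared genes. The overlap is thus partly set by the selection and is no check of it. Of 4316 genes kept in both, 199 were past 2-fold and higher in the CD45-positive and 433 in the CD45-negative library, and 153 in both, which is 76.9% and 35.3% of the 2 sets. Of genes at least 2-fold lower, 36 were shared, which is 29.0% of 124 and 9.23% of 390. With at least 20 UMI expected, 2.74% of 2696 genes were higher and 1.52% were lower in the CD45-positive library, and 6.95% and 4.26% of 1338 genes in the CD45-negative library. Cycling T cells, picked in the same library by at least 3 UMI of Cd3 genes and the same limit on the division genes, had median log2 ratios of 2.85 for G2/M, 3.45 for the spindle, 2.25 for the replication fork and 2.08 for S phase. The alveolar macrophage values of 4.01, 3.85, 2.37 and 1.90 stand beside them with no test of the difference. The genes kept were not the same, with 30 of the G2/M and 19 of the S phase list in macrophages against 24 and 28 in T cells. Over all measured genes with a ratio, the 4 medians were 4.66, 4.61, 2.53 and 2.64 in macrophages. In T cells they were 4.21, 4.21, 2.25 and 2.32, so the order for S phase depended on the filter.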

How the data were processed

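Cells came from 2 droplet libraries of mouse lung adenocarcinoma, a CD45-positive and a CD45-negative fraction, read on a 3' protocol with 6000 cells loaded per channel. The authors deposited raw UMI counts per gene and cell with a table of cell classes, made with Cell Ranger 1.1.0 on mm10 per the submitters' processing notes. The filters that removed genes and cells are not stated in the labels used here.

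Members were chosen by the UMI limits given above. T cells and neutrophils also had at most 2 UMI of the alveolar set, and C1q macrophages were cells outside the alveolar macrophages. UMI were summed per library and group, and CPM is the sum per 1000000 UMI of the group. A gene was kept with at least 5 UMI expected in cycling cells if both groups were alike. Past 2-fold is a description: with 1 library per group there is no test and no p-value. Ratios have exact conditional binomial intervals at 95%, shares Clopper-Pearson intervals, and a group at 0 was set to 3 counts for a bound. Depth comparisons thinned each cell to 2000 UMI, and no cell here was shallower. No doublet caller was run, and whether doublets were removed before deposit is likewise not stated. The steps were tested on simulated data.

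Lists held 523 entries in 37 lists, of which 3 are not in the table analysed here. The members and lists were chosen with earlier results of these data known. Genes named were those of the rule, the 12 highest and 12 lowest ratios, the 10 highest outside the cell cycle lists, and from each list up to 4 with the most UMI and any past 2-fold, besides the cyclins, their kinases and inhibitors; others are said to be chosen after their values were seen. Some genes that the rule admits are not reported here. Promoters are from RefSeq (GRCm38.p6). Software was scipy 1.17.1, numpy 2.4.6, pandas 2.3.3 and matplotlib 3.10.9 under Python 3.11.15. Alternatives changed the limits, the depth, the filter and the library.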

Additional observations from a re-analysis of the deposited data

How the results depend on the processing

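No paired analysis was possible because each fraction is 1 library and the result comes from no test. The share of cycling cells was 5.80% at a limit of 5 division UMI, and 20.5% in the CD45-negative library (19.4% without its deepest cycling cell). With 1 division UMI as the limit it was 17.6%, and 11.9% after thinning. The median UMI of non-cycling cells was 3954 with at least 10 alveolar UMI, 3514 with no lymphocyte UMI and 3511 with at most 2 UMI of other cell types. Genes at least 2-fold higher numbered 203 with no lymphocyte UMI, 146 after thinning, 1569 with no filter on low genes and 74 with at least 20 UMI expected. Genes 2-fold lower numbered 200 after thinning, 753 with no filter and 41 with at least 20 UMI expected. Fewer or more genes pass the filter in these settings by their construction.

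The G2/M median log2 ratio was 3.47 with at least 10 alveolar UMI, 3.88 and 3.43 at limits of 2 and 5 division UMI, 3.23 with no lymphocyte UMI and 3.65 with at most 2 UMI of other cell types. It was 4.25 over both libraries summed, 2.69 after thinning, 4.35 against non-cycling cells of like depth, 4.66 with no filter, 3.30 with at least 20 UMI expected and 3.75 in the CD45-negative library. The S phase median was 1.19 with no lymphocyte UMI, 2.29 over both libraries, 0.75 after thinning, where 3 genes were kept, 2.16 at like depth, 2.64 with no filter and 1.63 with at least 20 UMI expected. It was 2.77 in the CD45-negative library and 2.64 without its deepest cycling cell. The alveolar identity median was -0.045 with at least 3 alveolar UMI, -0.28 with no lymphocyte UMI, -0.21 with at most 2 UMI of other cell types, -0.19 after thinning and -0.17 at like depth. It was -0.36 in the CD45-negative library, and -0.47 without its deepest cycling cell. The lysosomal median was -0.31 with no lymphocyte UMI, -0.33 over both libraries, -0.35 at like depth, and -0.67 and -0.65 in the CD45-negative library with and without that cell. The summed C1q macrophage list stood at a log2 ratio of -1.56 with at least 10 alveolar UMI, -3.06 with at least 3 and -2.67 with no lymphocyte UMI.

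Values past 2-fold reversed as follows, and the cause was not tested beyond the single cells named. With no lymphocyte UMI the log2 ratio was 0.90 for the summed red blood cell list and 0.72 for its median, 1.56 for Hba-a1, 0.72 for Hbb-bs, 0.14 for Cxcl1, -0.22 for Pold3, -0.38 for Rbl1 and -0.96 for Ubd. The red blood cell sum was 0.17 without the non-cycling cell with most of its UMI, -0.74 after thinning and -2.09 at like depth. Ubd was -0.46 with at most 2 UMI of other cell types, and Rpa1 -0.10 after thinning. The CD45-negative library, with and without its deepest cycling cell, gave 1.02 and 1.32 for Ccl4, 0.12 and 0.41 for Irf7, 0.63 and 0.19 for Mapk9, and -0.30 and -0.0022 for Ubd. Without that cell it gave 0.091 for Hspb1, 0.091 for Kcnn4, -0.59 for Lbr and -0.17 for Lin54. Over 183 named genes, 2472 of 2519 values under alternatives kept their direction and 47 did not, of which 27 belong to genes under 2-fold. Leaving out cells with few other alveolar transcripts or with C1q UMI, use of the CD45-negative library alone, and leaving out the cell with most UMI, were alternatives chosen after seeing the data. The CD45-negative values rest on 15 cycling cells.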

Other observations

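The 96 alveolar macrophages with 1 or 2 division UMI were used in neither group. In the CD45-positive library they had a median S phase list level of 554 CPM, beside 1717 CPM in cycling and 332 CPM in non-cycling cells. Their median G2/M list level was 867 CPM, beside 7038 and 591 CPM. In the CD45-negative library the S phase medians were 1044 CPM in these 13 cells, 3057 CPM in cycling and 281 CPM in non-cycling cells, and the G2/M medians were 828, 6936 and 616 CPM. The CD45-negative cells of this kind thus lay above the non-cycling median in S phase genes, with a G2/M level nearer to that of non-cycling cells. The 69 CD45-positive cells with exactly 1 division UMI held 1192 CPM of the G2/M list, and the 14 cells with exactly 2 held 3361 CPM. At least 10 UMI of both phase lists together were found in 76 of 78 cycling cells, 30 of 83 cells with 1 or 2 division UMI and 48 of 752 non-cycling cells of the CD45-positive library.

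The limit on lymphocyte UMI left out 24 cells that met the other limits of a cycling alveolar macrophage, and 191 that met those of a non-cycling one. Of the 24, 10 had 3 lymphocyte UMI, just past the limit.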
